A study of Rattus norvegicus with 9 samples.

Results

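The genes described here handle vitamin A (retinol) and its active product, retinoic acid, in rat pancreatic stellate cells, the fibroblast-like cells of the pancreas. The 9 genes were named by symbol (Stra6, Rbp4, Lrat, Aldh1a1, Aldh1a2, Cyp26b1, Crabp2, Rara and Rarb), and a gene was read from the array entry that the probe table pairs with that symbol alone. Of these 9, 8 had such an entry, among 14506 genes in all. Each of the 8 had 1 entry, so no choice between entries arose, and Rarb, a retinoic acid receptor gene, was not analysed here.

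Stellate cells were isolated from male Sprague Dawley rats on a Nycodenz density gradient, and all groups received the same number of cells per 10 cm dish and 72 hours in IMDM with 10% foetal bovine serum. The labels separate the groups by culture surface, which was Matrigel (2 arrays), collagen I (3 arrays) or uncoated plastic (4 arrays). Matrigel is an extract of basement membrane, whereas collagen I is the fibre-forming collagen that fills scars. Expression was measured on Affymetrix whole-transcript arrays and is given as log2 values, on which a difference of 1 is a 2-fold change. The labels do not say whether arrays of a group came from separate animals, and the spread behind each p-value may therefore be technical.

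Quiescent stellate cells store retinol as fatty acid esters in lipid droplets and lose these stores when they turn into matrix-producing myofibroblasts. Retinol travels in blood on the carrier RBP4, can enter cells through the receptor STRA6, and is esterified for storage by LRAT. When it is used, retinol is oxidised to retinal, and retinal dehydrogenases of the ALDH1A family oxidise retinal to retinoic acid. Retinoic acid binds nuclear receptors (RAR, paired with RXR), is carried by CRABP proteins and is destroyed by cytochromes of the CYP26 family.

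Aldh1a2 and Cyp26b1, which stand at opposite ends of the life of retinoic acid, changed in opposite directions on both matrices relative to plastic. The 250 bases before their annotated starts (RefSeq, build GRCr8) are shown because these 2 genes carry the comparison with plastic on both matrices. The Aldh1a2 stretch is chr8:80758391-80758640 on the plus strand and the Cyp26b1 stretch chr4:118616177-118616426 on the minus strand. Capitals mark a match to a searched motif. These were the CAAT box (CCAAT), the TATA box (TATAAA), the GC box (GGGCGG) and the DR elements, the form in which many retinoic acid receptor sites are written. A DR element is a direct repeat of a hexamer with 1, 2 or 5 bases between its copies, where each copy may be AGGTCA, the close variant GGGTCA, the further variant AGTTCA, or the last allowed form GGTTCA.
Aldh1a2: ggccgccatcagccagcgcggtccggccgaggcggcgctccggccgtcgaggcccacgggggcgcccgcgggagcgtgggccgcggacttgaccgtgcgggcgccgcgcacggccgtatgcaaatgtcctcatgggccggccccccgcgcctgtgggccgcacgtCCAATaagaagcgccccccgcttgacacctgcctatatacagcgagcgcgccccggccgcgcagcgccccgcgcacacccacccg
Cyp26b1: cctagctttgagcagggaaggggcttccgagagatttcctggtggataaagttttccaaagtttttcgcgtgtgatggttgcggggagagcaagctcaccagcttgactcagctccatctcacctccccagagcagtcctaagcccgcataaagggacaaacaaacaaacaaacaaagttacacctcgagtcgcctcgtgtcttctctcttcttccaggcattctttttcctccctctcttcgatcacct
The CCAAT of Aldh1a2 begins at base -85 from the start, and none of the motifs lies in the Cyp26b1 stretch. Both strands were searched over 300 bases (250 before and 50 after the start) for all 9 genes and for 33469 annotated promoters. A CCAAT was found in 3 of the 9 (Lrat, Aldh1a2 and Aldh1a1) and in 37.5% of all promoters. GGGCGG was found in 5 of the 9 and in 33.1% of all, and TATAAA in 2 of the 9 (Rbp4 and Crabp2) and in 14.2% of all. The stretches differ in base composition, with 77.2% G or C in that of Aldh1a2 and 50.4% in that of Cyp26b1.
Among the 9 genes a DR5 element (spacing of 5) was found only in Rarb, against 0.382% of all promoters, and no DR2 or DR1 element was found in any of the 9 (0.170% and 0.233% of all). It is shown with that of Cyp26a1, the relative of Cyp26b1, with the hexamers in capitals. The Rarb element is chr15:11336416-11336432 on the plus strand, and that of Cyp26a1 is chr1:244883730-244883746 on the minus strand.
Rarb: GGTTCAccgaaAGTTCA
Cyp26a1: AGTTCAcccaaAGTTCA
A match is a description of letters, not evidence of a bound site, and its absence says nothing about sites elsewhere.

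Across the series, 3 of the 8 measured genes passed the test between Matrigel and plastic, 2 higher (Rbp4 and Cyp26b1) and 1 lower (Aldh1a2). Of all 14506 genes, 10.4% passed in that comparison, 4.52% higher and 5.85% lower. Between collagen I and plastic 2 of 8 passed, Cyp26b1 higher and Aldh1a2 lower, against 6.12% of all genes (2.95% higher and 3.17% lower). Between Matrigel and collagen I 1 of 8 passed, Rbp4, which was higher on Matrigel, against 2.67% of all genes (1.21% higher). The median difference of the 8 genes was 0.13, -0.05 and 0.20 in these 3 comparisons, and that of all genes -0.01, 0.00 and -0.02. The test was limma's with 1 mean per surface, and a gene passed at an adjusted p (Benjamini-Hochberg over all genes) under 0.05. Both comparisons with plastic use the same 4 plastic arrays. A gene whose group mean lay under log2 4.25, the 40th percentile of all gene means, is called dim in that group. Stra6, Aldh1a1 and Crabp2 were dim on all 3 surfaces, Lrat on Matrigel and collagen I, and the other 4 genes on none.

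**Figure D1:**
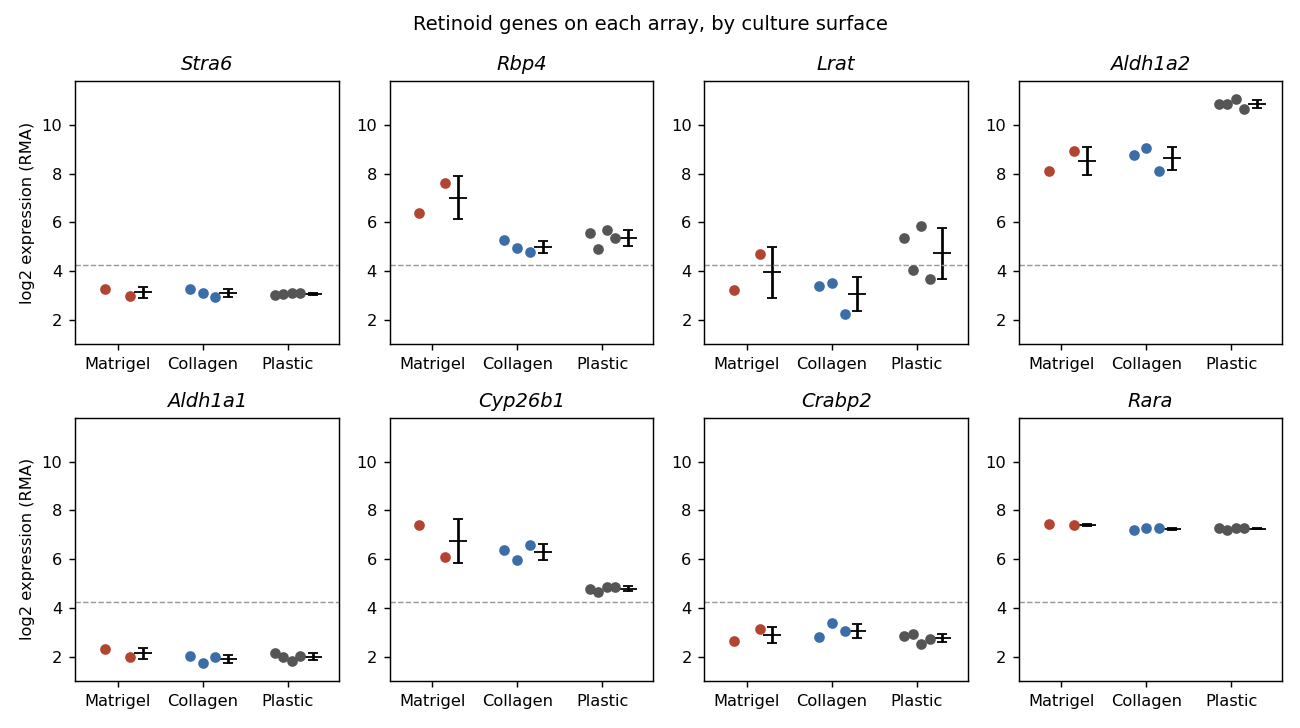
Level of the 8 measured retinoid genes on each array (log2 expression, RMA values as deposited), with 1 dot per array by surface; the bar beside the dots is the mean ± SD (n = 2 Matrigel, 3 collagen I, 4 plastic) and the dashed line the dim level of 4.25. Aldh1a2 lies between 8.12 and 9.05 on both matrices and between 10.67 and 11.05 on plastic, whereas Cyp26b1 lies between 5.95 and 7.39 on the matrices and between 4.63 and 4.86 on plastic.

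The arrays showed the stellate cell genes of the label and also genes of other pancreatic cells. Of 16 stellate cell markers 2 to 3 were dim on each surface, and the collagen gene Col1a1 averaged 12.50 ± 0.07 on Matrigel, 12.76 ± 0.24 on collagen I and 12.72 ± 0.18 on plastic (SD). On Matrigel 2 of the 16 were higher than on plastic (Plin2 and Pparg) and 3 lower (Des, Lum and Col3a1), and on collagen I 1 was higher (Plin2) and 1 lower (Des). Of all genes, 4.52% were higher and 5.85% lower on Matrigel, and 2.95% and 3.17% on collagen I. Plin2, a lipid droplet coat gene, differed from plastic by 1.88 ± 0.12 on Matrigel and 0.95 ± 0.11 on collagen I (log2, SE; limma adjusted p = 0.000185 and 0.00178). Des, the desmin gene, differed from plastic by -1.93 ± 0.13 on Matrigel and -0.77 ± 0.12 on collagen I (log2, SE; limma adjusted p = 0.000208 and 0.00580). The insulin gene Ins1 averaged 11.76 ± 0.58 on Matrigel, 10.73 ± 0.51 on collagen I and 9.80 ± 0.74 on plastic, and the leukocyte gene Ptprc 6.50 ± 0.16, 5.44 ± 0.27 and 5.40 ± 0.53 on the same surfaces. Between Matrigel and plastic Ins1 passed and Ptprc did not (limma adjusted p = 0.0342 and 0.0564). The Ins1 call was lost, among other settings, with array weights (0.0818) and with plastic restricted to its A and S arrays (0.144). The endothelial gene Pecam1, the epithelial gene Krt19 and the acinar gene Prss1 were dim on all 3 surfaces, but other genes of their lists were not. On Matrigel 6 of 11 endothelial, 9 of 13 epithelial and 10 of 18 acinar genes were dim. Of the 18 acinar genes 2 were higher on Matrigel than on plastic and 0 lower. Ctrb1 was higher by 3.80 ± 0.56 (SE; limma adjusted p = 0.00435). Cpa1, dim on plastic, was higher by at least 1.63 (limma adjusted p = 0.0108). The markers Acta2, Vim, Csf1r and Gcg passed in no comparison. Their differences between Matrigel and plastic were -1.23, -0.36, 1.16 and 2.05 (limma adjusted p = 0.0892, 0.117, 0.0994 and 0.118). Plin2, Lum, Col3a1, Ctrb1, Cpa1, Adipoq, Wt1, Fabp4, Cebpa, Plin1, Cidec, Laptm5, Itgam and Hoxa5 were singled out after their values were seen. In such bulk samples fewer cells of a type and less RNA per cell cannot be told apart.

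**Figure D2:**
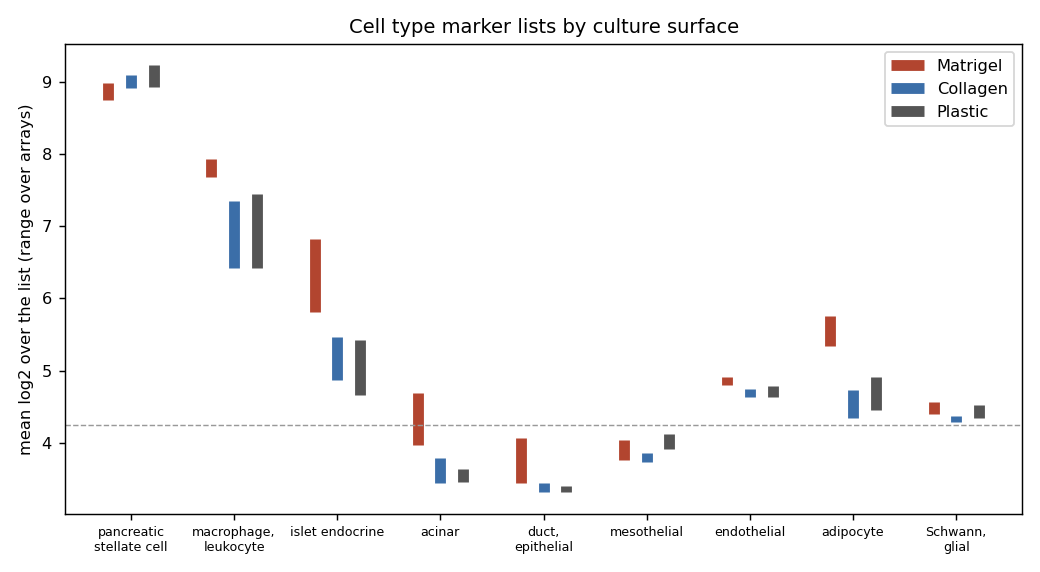
Range over the arrays of each surface of the mean log2 level of 9 cell type marker lists (vertical bars; dashed line, dim level of 4.25). The Matrigel arrays lie above all collagen I and plastic arrays for the macrophage, islet, acinar, endothelial and adipocyte lists, at 7.69 to 7.94 against up to 7.35 and 7.45 for macrophages. The endothelial gap is small (4.80 to 4.90 against up to 4.74 and 4.78), with 1 of 11 genes higher and 1 lower on Matrigel than on plastic.

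Aldh1a2 (Entrez gene 116676), the retinal dehydrogenase that makes most retinoic acid in mesenchymal tissue of the rodent embryo, was the gene of this group that fell on both matrices. Its level was 8.12 and 8.92 on the 2 Matrigel arrays, and 8.74, 9.05 and 8.12 on the 3 collagen I arrays, against 10.85, 10.88, 11.05 and 10.67 on the 4 plastic arrays. Every plastic array lay above every matrix array, and the levels on Matrigel and collagen I overlapped. Groups did not overlap for 30.2% of all genes between Matrigel and plastic and for 17.2% between collagen I and plastic. The difference from plastic was -2.34 ± 0.28 on Matrigel (log2, SE; limma adjusted p = 0.00174), a level 5.07-fold lower. On collagen I it was -2.22 ± 0.24 (limma adjusted p = 0.00130), 4.67-fold lower. Of all genes, 0.455% differed by more than Aldh1a2 between Matrigel and plastic, and 0.386% between collagen I and plastic. Matrigel and collagen I differed by -0.12, with a 95% interval of -0.78 to 0.54 (limma adjusted p = 0.891).

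The fall of Aldh1a2 was present in each pair of arrays whose titles carry the same letter (the letters are A, P, S and Z, and the labels leave them unexplained). It was -2.73 for letter A and -2.13 for letter S on Matrigel, and -2.11, -1.83 and -2.55 for A, P and Z on collagen I. Leaving out any array kept both calls, with differences of -2.74 to -1.95 on Matrigel and -2.43 to -1.97 on collagen I. Aldh1a2 is also a gene of mesothelial cells, which line the organ surface. Of 12 measured mesothelial markers, 1 passed against plastic, the transcription factor gene Wt1, which stellate cells can also express. Of all genes, 5.85% were lower than on plastic on Matrigel and 3.17% on collagen I. Wt1 fell by 1.06 ± 0.17 on Matrigel and by 1.02 ± 0.15 on collagen I (limma adjusted p = 0.00602 and 0.00490). The mesothelin gene Msln differed by -0.02 and -0.57 (limma adjusted p = 0.980 and 0.158). The mean of the list was 3.76 to 4.04 on Matrigel, 3.72 to 3.85 on collagen I and 3.91 to 4.12 on plastic, with 8, 8 and 7 of its 12 genes dim. Its part in the Aldh1a2 result was not tested.

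Cyp26b1 (Entrez gene 312495), which encodes a cytochrome that oxidises and so clears retinoic acid, was higher on both matrices. Its level was 7.39 and 6.09 on Matrigel and 6.37, 5.95 and 6.60 on collagen I, against 4.77, 4.63, 4.84 and 4.86 on plastic. The plastic arrays lay close together and below every matrix array. Such a lack of overlap with plastic was found for 30.2% of all genes on Matrigel and 17.2% on collagen I. The difference from plastic was 1.97 ± 0.31 on Matrigel (3.91-fold higher; limma adjusted p = 0.00620) and 1.53 ± 0.28 on collagen I (2.89-fold higher; limma adjusted p = 0.0131). Matrigel and collagen I differed by 0.44, with a 95% interval of -0.32 to 1.19 (limma adjusted p = 0.559), and the arrays of these surfaces overlapped. The rise was 2.62 and 1.26 within letters A and S on Matrigel, and 1.59, 1.32 and 1.74 within A, P and Z on collagen I. The collagen I call was lost without collagen replicate 1 or 3 (limma adjusted p = 0.0507 and 0.0573), at differences of 1.50 and 1.39. When plastic was restricted to its A and S arrays, the Matrigel call was lost (limma adjusted p = 0.0588) at a difference of 1.94.

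**Figure D3:**
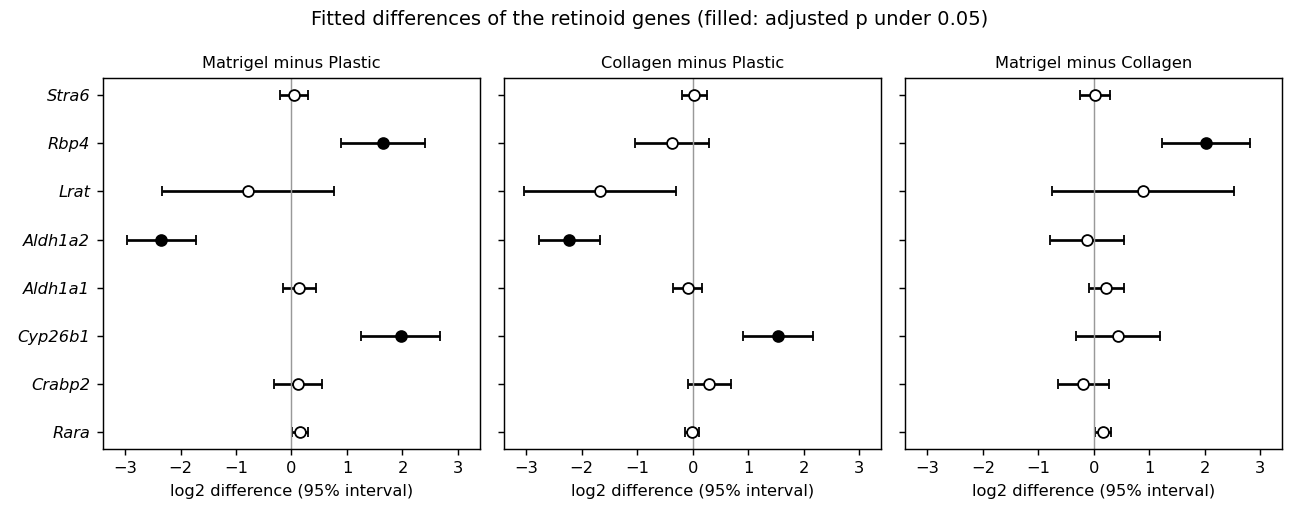
Fitted log2 difference of each retinoid gene with its 95% interval (limma, all 9 arrays), for Matrigel minus plastic, collagen I minus plastic and Matrigel minus collagen I; filled circles have an adjusted p under 0.05. Aldh1a2 is at -2.34 and -2.22 and Cyp26b1 at 1.97 and 1.53 against plastic, while Rbp4 stands out in both comparisons that involve Matrigel, at 1.65 and 2.02.

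Rbp4 (Entrez gene 25703), the retinol carrier that liver and fat tissue secrete into blood, was higher on Matrigel than on both other surfaces. Its level was 6.40 and 7.63 on Matrigel, 5.28, 4.94 and 4.76 on collagen I, and 5.55, 4.91, 5.68 and 5.34 on plastic. Both Matrigel arrays lay above every other array, whereas collagen I and plastic overlapped. Groups did not overlap for 30.2% of all genes between Matrigel and plastic and for 29.5% between Matrigel and collagen I. The difference was 1.65 ± 0.33 against plastic (3.13-fold higher; limma adjusted p = 0.0165) and 2.02 ± 0.35 against collagen I (4.07-fold higher; limma adjusted p = 0.0259). Collagen I and plastic differed by -0.38, with a 95% interval of -1.05 to 0.29 (limma adjusted p = 0.562). Of all genes, 0.172% differed by more than Rbp4 between Matrigel and collagen I.

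Both calls of Rbp4 rested on few arrays. Without Matrigel replicate 2 the difference was 1.03 against plastic (limma adjusted p = 0.0790), more than 1.5 times smaller, and 1.41 against collagen I (limma adjusted p = 0.0712). Against plastic the call was also lost with only the 2 compared groups in the fit (limma adjusted p = 0.0529) and when plastic was restricted to its A and S arrays (limma adjusted p = 0.108). Against collagen I it was lost without collagen replicate 2 or 3 (limma adjusted p = 0.0902 and 0.0703), without plastic replicate 1 or 4 (limma adjusted p = 0.0577 and 0.0517) and with only the 2 compared groups in the fit (limma adjusted p = 0.163). With the title letter as a fixed replicate block that difference was 1.53 and was not called (limma adjusted p = 0.103). Markers of other cells were higher on the same arrays. Of 12 adipocyte markers 6 passed as higher on Matrigel than on plastic and 0 on collagen I, and the list mean was 5.34 to 5.76 on Matrigel, 4.34 to 4.72 on collagen I and 4.46 to 4.92 on plastic. The 6 were Fabp4, Cebpa, Pparg, Plin1, Cidec and Lipe, of which Pparg is also on the stellate cell list and Lipe on the retinoid ester list. Adipoq, the adiponectin gene that defines adipocytes, was dim on all 3 surfaces. Of 16 islet markers 8 passed as higher on Matrigel than on plastic, with a list mean of 5.81 to 6.83 on Matrigel, 4.87 to 5.47 on collagen I and 4.65 to 5.43 on plastic. The macrophage list had 2 of 19 markers that passed as higher on Matrigel than on plastic, the lysosomal membrane gene Laptm5 and the integrin gene Itgam. The median difference between Matrigel and plastic was 1.04 over the macrophage list, 1.38 over the islet list and 0.73 over the adipocyte list, against -0.01 over all genes. Beside these lists, 4.52% of all genes were higher on Matrigel than on plastic. Within Matrigel, the array with the higher Rbp4 (replicate 2) had the higher adipocyte and macrophage list means (5.76 and 7.94, against 5.34 and 7.69) and the lower islet list mean (5.81 against 6.83). The part of these cells in the Rbp4 result was not tested.

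Lrat (Entrez gene 64047), the enzyme that esterifies retinol and so marks retinoid-storing cells, passed in none of the comparisons. Its level was 3.21 and 4.68 on Matrigel and 3.39, 3.53 and 2.25 on collagen I, against 5.35, 4.06, 5.85 and 3.66 on plastic. Every collagen I array lay below every plastic array, and the Matrigel arrays overlapped both. Groups did not overlap for 17.2% of all genes in the comparison of collagen I with plastic. The differences from plastic were -0.78 on Matrigel (95% interval -2.34 to 0.77; limma adjusted p = 0.567) and -1.67 on collagen I (95% interval -3.04 to -0.30; limma adjusted p = 0.168). With matrix arrays under 4.25 set to that level and the plastic arrays left as deposited, the plastic mean lay 0.26 above Matrigel and 0.48 above collagen I. These values take no account of the spread, and the plastic arrays at 4.06 and 3.66 were also under 4.25. Matrigel and collagen I were both dim and differed by 0.89 (limma adjusted p = 0.588).

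Lrat varied widely on plastic, where letters A and S were at 5.35 and 5.85 and letters P and Z at 4.06 and 3.66. Within letters, the difference of Lrat from plastic was -2.14 (A) and -1.16 (S) on Matrigel, and -1.96 (A), -0.54 (P) and -1.40 (Z) on collagen I. With the letter as a fixed replicate block the collagen I difference was -1.24 (limma adjusted p = 0.0486), and the Matrigel difference -1.52 (limma adjusted p = 0.0375), so that both passed in that fit. Lrat passed in no other alternative (1 of 19 on Matrigel and 1 of 18 on collagen I). The letter as a random replicate block was among those without a call. By the check of shared deviations, letters P and Z paired the arrays of collagen I with those of plastic. This was not settled for letter A or for Matrigel. The blocked difference was thus 1.94 times the unblocked one on Matrigel and 0.742 times on collagen I. Without the block, leaving out Matrigel replicate 2 or 1 gave Matrigel differences of -1.52 and -0.05. The macrophage list mean on plastic was also higher on the arrays of letters A and S (7.11 and 7.45) than on those of P and Z (6.42 and 6.45), and its part was not tested.

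**Figure D4:**
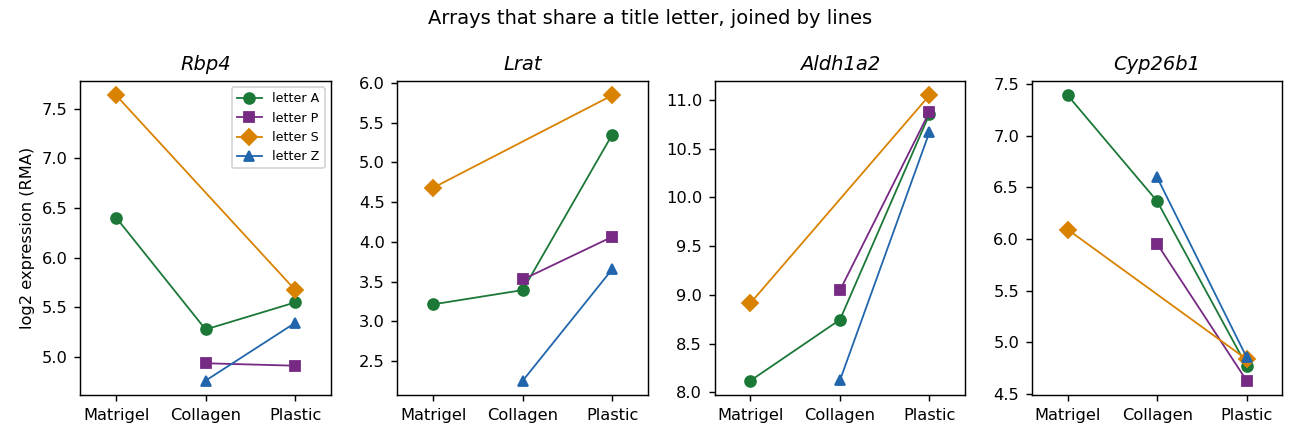
Level (log2 expression, RMA) of Rbp4, Lrat, Aldh1a2 and Cyp26b1 by surface, with lines that join arrays sharing a title letter. Lrat was higher on plastic than on the matrix in each of the 5 pairs (differences from -0.54 to -2.14), as was Aldh1a2, while Cyp26b1 was lower on plastic in each.

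The receptor genes Rara and Stra6 and the retinoic acid carrier gene Crabp2 passed in no comparison. Rara (Entrez gene 24705), which encodes a retinoic acid receptor, was at 7.42 and 7.38 on Matrigel, 7.19, 7.26 and 7.26 on collagen I, and 7.26, 7.21, 7.26 and 7.26 on plastic. The deposited value was identical on 5 of the 9 arrays. Both Matrigel arrays lay above all others, by a difference of 0.15 from plastic (95% interval 0.01 to 0.29; limma adjusted p = 0.179) and 0.16 from collagen I (95% interval 0.01 to 0.31; limma adjusted p = 0.248). Groups did not overlap for 30.2% and 29.5% of all genes in these comparisons. Collagen I and plastic differed by -0.01 (95% interval -0.14 to 0.11; limma adjusted p = 0.938), a sign that turned with another scaling of the arrays.

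Stra6, the receptor for RBP4, was dim throughout, between 2.97 and 3.28 on Matrigel, 2.95 and 3.26 on collagen I, and 3.03 and 3.11 on plastic. Aldh1a1, a second retinal dehydrogenase, was also dim, between 1.98 and 2.30 on Matrigel, 1.72 and 2.01 on collagen I, and 1.82 and 2.16 on plastic. The probe table lists 2 RefSeq transcripts on the Aldh1a1 entry, of which 1 is that of Aldh1a1 in RefSeq, so its probes may also read a close relative. Crabp2, which carries retinoic acid to the nucleus, lay between 2.64 and 3.12 on Matrigel, 2.79 and 3.36 on collagen I, and 2.52 and 2.94 on plastic. Groups overlapped for these 3 genes in every comparison, and limma adjusted p-values ran from 0.392 to 0.964. Values this low have no fold change, and the arrays give no detection call, so that a low level cannot be told apart from background.

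The order of the surfaces therefore differed between the genes that were not dim. For Aldh1a2 plastic stood first, and the matrices below it did not differ beyond their spread. For Cyp26b1 the order was the opposite, with plastic last and the matrices again not separated. For Rbp4 Matrigel stood first, and plastic and collagen I were not separated. For Rara Matrigel stood first by less than the test could call.

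The genes with the most similar pattern over the 9 arrays were found by the root mean square difference of values centred on each gene's own mean. For Aldh1a2 these were Rab30, a small GTPase gene (0.19), Agtr1a, an angiotensin receptor gene (0.22), and Ramp3, a receptor partner gene (0.23), against an SD of 1.24 for Aldh1a2 itself. For Cyp26b1 they were Ggt1, the gene of a glutathione-cleaving enzyme (0.20), Slc25a37, a mitochondrial iron carrier gene (0.23), and Kcnh1, a potassium channel gene (0.29), against an SD of 0.99. For Rbp4 they were Lrp3 (0.31), the adipsin gene Cfd (0.32) and the adipogenic regulator gene Pparg (0.34), against an SD of 0.91. The distances are descriptions over arrays that share 3 surfaces.

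Around these genes, 102 genes of retinoid handling were listed by role, of which 80 had an entry. Against plastic, 12 were higher and 4 lower on Matrigel, where 4.52% of all genes were higher and 5.85% lower. On collagen I 2 were higher and 8 lower, where 2.95% of all genes were higher and 3.17% lower. Between Matrigel and collagen I 4 were higher (Cd36, Rbp4, Pnpla2 and Akr1b10) and 0 lower on Matrigel, where 1.21% of all genes were higher and 1.45% lower. Akr1b10 was dim on both of these surfaces. Without the collagen replicate 1 or 2 array each of the 3 besides Rbp4 lost its call (limma adjusted p from 0.0534 to 0.123), as it did with only the 2 compared groups (0.128 for Cd36, 0.130 for Pnpla2 and 0.163 for Akr1b10). Without Matrigel replicate 2 the Cd36 and Pnpla2 calls were lost (limma adjusted p = 0.0812 and 0.119), and without Matrigel replicate 1 those of Pnpla2 and Akr1b10 (0.0736 and 0.143). Those of Pnpla2 and Akr1b10 were also lost without collagen replicate 3 (0.0703 and 0.0596) or plastic replicate 1 (0.0634 and 0.0539), with array weights (0.0545 and 0.0516) and with the title letter as a fixed replicate block (0.0792 and 0.0781). The Akr1b10 call was lost without plastic replicate 2 or 4 too (0.0647 and 0.0713). The median difference of the 80 was 0.08, 0.00 and 0.13 in the 3 comparisons, and that of all genes -0.01, 0.00 and -0.02. On Matrigel 36 of the 80 were dim, on collagen I 38 and on plastic 35.

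In the transport list, 3 of 11 measured genes were higher on Matrigel than on plastic (4.52% of all genes) and 0 differed on collagen I. Besides Rbp4 these were Stra6l, a relative of Stra6 that was dim on all surfaces and whose call was lost without either Matrigel array (limma adjusted p = 0.0744 and 0.0559) or with plastic restricted to A and S (0.0666), and Cd36, a fatty acid receptor that also takes up carotenoids. Cd36 was at 5.84 and 7.02 on Matrigel, 3.11, 3.05 and 3.72 on collagen I, and 2.55, 2.63, 4.06 and 3.11 on plastic, at least 2.19 higher on Matrigel than on plastic (limma adjusted p = 0.00342). Of 12 measured genes of ester synthesis and hydrolysis, 3 were higher on Matrigel than on plastic (4.52% of all genes), Dgat2 and the lipase genes Pnpla2 and Lipe. The Lipe difference of 0.73 became 0.35 without Matrigel replicate 2 and was 1.11 without Matrigel replicate 1 (limma adjusted p = 0.180 and 0.00868). The Lipe call was also lost without any collagen or plastic array (limma adjusted p from 0.0598 to 0.106), with only the 2 compared groups (0.109) and when plastic was restricted to its A and S arrays (0.162). The Pnpla2 call was lost without either Matrigel array, collagen replicate 2 or plastic replicate 1, 3 or 4 (limma adjusted p from 0.0522 to 0.157), with only the 2 compared groups (0.0624), with array weights (0.0547) and with plastic restricted to A and S (0.0545). Dgat2, which can esterify retinol as well as diglyceride, averaged 8.24 ± 0.52 on Matrigel, 6.48 ± 0.71 on collagen I and 6.43 ± 0.45 on plastic (SD), a difference of 1.81 ± 0.41 from plastic (limma adjusted p = 0.0265). The Dgat2 call was lost without Matrigel replicate 1 or 2 or plastic replicate 1, 2 or 4 (limma adjusted p from 0.0534 to 0.157), or with plastic restricted to A and S (0.139). Lipa, the lysosomal lipase gene, was the only gene of this list past the threshold on collagen I, with a difference of -0.60 ± 0.13 from plastic (limma adjusted p = 0.0278), a call lost without any collagen array or without plastic replicate 1 or 3 (limma adjusted p from 0.0539 to 0.103).

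Among 19 measured genes that interconvert retinol and retinal, 4 were lower and 0 higher on collagen I than on plastic (3.17% and 2.95% of all genes). They were the reductase genes Dhrs3 and Dhrs4 and the retinol dehydrogenase genes Dhrs9 and Rdh10. Rdh10, which makes the retinal that Aldh1a2 uses, was at 5.91 and 6.59 on Matrigel and 5.34, 5.68 and 5.55 on collagen I, against 6.47, 6.32, 7.28 and 6.32 on plastic. It differed from plastic by -1.07 ± 0.26 on collagen I (limma adjusted p = 0.0445) and by -0.34 ± 0.29 on Matrigel (limma adjusted p = 0.554). Dhrs3, a retinal reductase that retinoic acid is known to induce, differed by -1.19 ± 0.28 on collagen I (limma adjusted p = 0.0407) and -0.89 ± 0.31 on Matrigel (limma adjusted p = 0.122). Dhrs9 was dim on both matrices, with a plastic mean of 4.67 that lay at least 0.42 above them (limma adjusted p = 0.0141 on each). Of the collagen I calls, that of Rdh10 was lost without any collagen array or without plastic replicate 1, 2 or 4 (limma adjusted p from 0.0620 to 0.139), or with quantile normalization again (0.0520). The Dhrs3 call was lost without collagen replicate 1 or 3 or plastic replicate 1, 2 or 3 (limma adjusted p from 0.0833 to 0.107), and the Dhrs4 call without collagen replicate 1 or 2 or plastic replicate 1, 2 or 4 (limma adjusted p from 0.0534 to 0.0721). The Dhrs9 call was lost without collagen replicate 2 or 3 (limma adjusted p = 0.0572 and 0.0552) and, on Matrigel, without Matrigel replicate 1 (limma adjusted p = 0.115) or with only the 2 compared groups (0.0557). On Matrigel 2 genes of this list were higher than on plastic (4.52% of all genes), the aldo-keto reductase genes Akr1b8 and Akr1b10, which reduce retinal among many other aldehydes. Akr1b8 was at 11.07 and 11.06 on Matrigel and averaged 10.15 ± 0.45 on collagen I and 9.52 ± 0.50 on plastic (SD), and its call on Matrigel was lost without either Matrigel array (limma adjusted p = 0.104 and 0.0841).

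Of the nearest relatives of these genes, Aldh1a3, Cyp26a1, Crabp1 and Rarg did not pass in any comparison. Aldh1a3, another retinal dehydrogenase, and Cyp26a1, the other well known retinoic acid hydroxylase of the liver, were dim on all 3 surfaces. Crabp1 averaged 4.45 ± 0.49 on Matrigel, 5.50 ± 0.49 on collagen I and 5.52 ± 0.67 on plastic, and Rarg 6.58 ± 0.10, 6.60 ± 0.22 and 6.44 ± 0.15 on the same surfaces (SD). The differences of Crabp1 from plastic were -1.08 and -0.03 (limma adjusted p = 0.167 and 0.980). In the receptor list 2 of 12 measured genes were higher on Matrigel than on plastic (4.52% of all genes), Rxra and Ppard. Rxra, the partner receptor, was at 8.39 and 8.05 on Matrigel and 7.83, 7.60 and 7.50 on collagen I, against 7.50, 7.45, 7.32 and 7.61 on plastic. It was 0.75 ± 0.13 higher on Matrigel (1.68-fold; limma adjusted p = 0.00894), a call lost without Matrigel replicate 1 (limma adjusted p = 0.0721), and differed by 0.17 ± 0.11 on collagen I (limma adjusted p = 0.497). Ppard, a fatty acid receptor gene, differed by 0.32 ± 0.07 on Matrigel (limma adjusted p = 0.0208), a call lost without Matrigel replicate 1 or 2 (limma adjusted p = 0.0980 and 0.0665), with only the 2 compared groups (0.0554) or with plastic restricted to A and S (0.0739).

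Genes known to respond to retinoic acid passed in both directions. Of 20 measured, 2 were higher (Egr1 and Cyp26b1) and 2 lower (Tgm2 and the homeobox gene Hoxa5) on Matrigel than on plastic. On collagen I 2 were higher (Egr1 and Cyp26b1) and 3 lower (Tgm2, Meis1 and Dhrs3). Of all genes 4.52% were higher and 5.85% lower on Matrigel, and 2.95% higher and 3.17% lower on collagen I. The Hoxa5 difference was -0.78 ± 0.16 (limma adjusted p = 0.0161), a call lost without Matrigel replicate 1 or 2 (limma adjusted p = 0.104 and 0.0615) or with plastic restricted to A and S (0.0634). Tgm2, the transglutaminase gene induced by retinoic acid in many cells, was at 4.90 and 6.23 on Matrigel and 5.04, 5.45 and 4.86 on collagen I, against 7.97, 7.83, 9.06 and 7.11 on plastic. No matrix array reached a plastic array, where 30.2% (Matrigel) and 17.2% (collagen I) of all genes did not overlap with plastic. The difference was -2.43 ± 0.52 on Matrigel and -2.88 ± 0.46 on collagen I (limma adjusted p = 0.0200 and 0.00740). The Matrigel call of Tgm2 was lost without Matrigel replicate 1 or plastic replicate 1 (limma adjusted p = 0.156 and 0.0527), or with only the 2 compared groups (0.0663). Egr1, an immediate-early gene with many other inducers, was 1.84 ± 0.19 higher on Matrigel and 1.30 ± 0.17 higher on collagen I (limma adjusted p = 0.00116 and 0.00317). Meis1, a homeobox gene, differed by -0.43 ± 0.07 on collagen I (limma adjusted p = 0.00922) and -0.19 ± 0.08 on Matrigel (limma adjusted p = 0.201).

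**Figure D5:**
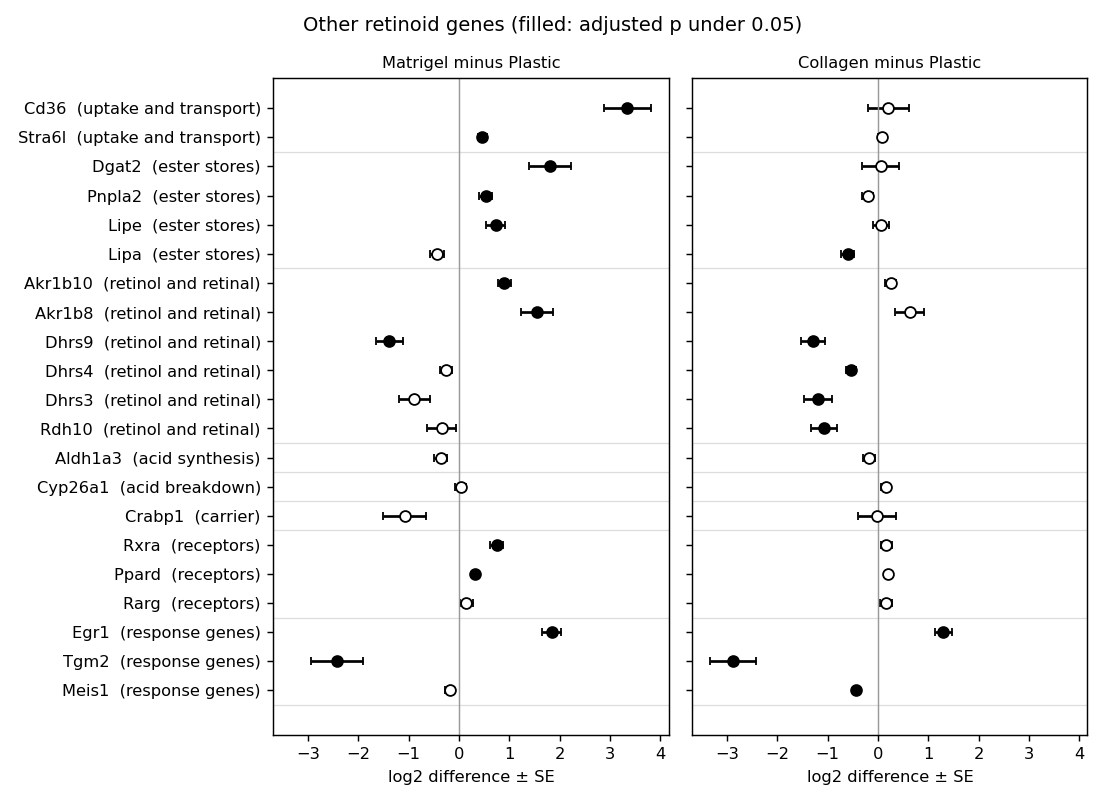
Fitted log2 difference from plastic (± SE, limma) of other retinoid genes on Matrigel (left) and collagen I (right), by role; filled circles have an adjusted p under 0.05. Cd36, Dgat2 and Rxra are filled on Matrigel and open on collagen I, Rdh10 and Dhrs3 are filled on collagen I and open on Matrigel, and Tgm2, at -2.43 and -2.88, is filled on both; Stra6l, Akr1b10, Aldh1a3 and Cyp26a1 are dim on all surfaces.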

How the data were processed

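The deposited table holds log2 expression values for 29215 probe set entries on 9 arrays, made by the authors with RMA, per the submitters' processing notes; RMA corrects background, quantile-normalizes and summarises probes. The software version and build were not given in the sources used here. RMA shrinks differences of dim genes, and 56.5% of genes had an identical deposited value on at least 2 arrays.

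The probe table paired 15310 entries with 1 symbol. The entry with the highest mean was kept per gene (804 left out), which gave 14506 genes. The limma package (3.58.1, R 4.3.3) estimated a mean for each surface from the 9 arrays together, with 6 residual degrees of freedom, and p-values were adjusted by Benjamini-Hochberg over all genes. The number of arrays limits the precision.

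The rule for named genes took all 9 members, up to 4 called genes per retinoid list, 8 relatives of the members, 13 markers and the 3 nearest genes of each called member. The members and lists were chosen with earlier results of these data known. Deviations from group means correlated between collagen I and plastic arrays of the same title letter (r = 0.196, 0.234 and 0.269), so these were read as pairs. For Matrigel and plastic the values were -0.131 and 0.406, which does not settle a pairing. Sequences are RefSeq's (GRCr8). The alternatives were other scalings, filters, samples, moderation, weights, letter blocks, and leaving out each array.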

Additional observations from a re-analysis of the deposited data

Results flagged for a closer look

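In Rara the lowest of the 4 plastic arrays stood apart, with a gap to the nearest array equal to the whole range of the group (ratio 1). The gap was between 7.21 and 7.26, and the other 3 plastic arrays carry the identical value 7.26. Chance singles out about 1 in 20 groups by this measure, and 8 genes were examined on plastic.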

How the results depend on the processing

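Of the 6 calls among the measured retinoid genes, both of Aldh1a2 held under every alternative run. Matrigel against plastic gave 3 called members and 1 when plastic was restricted to its A and S arrays, where all genes called were 628 in place of 1504. Matrigel against collagen I gave 1 called member and 0 with only the 2 compared groups in the limma fit or with the title letter as a fixed replicate block. All genes called were 387 there, and 0 (2094 at an unadjusted p under 0.05), 66 and 257 with the 2 groups, the fixed replicate block and array weights. Leaving out each array gave 2 to 3, 1 to 2 and 0 to 1 called members in Matrigel against plastic, collagen I against plastic and Matrigel against collagen I, and 759 to 1461, 552 to 870 and 68 to 352 genes. The fixed letter block raised Lrat past the threshold in both comparisons with plastic and changed no other member's call there. It turned the uncalled Lrat difference between Matrigel and collagen I to -0.27. The uncalled Rara difference between collagen I and plastic turned to 0.026 with arrays re-centred and 0.0084 with quantile normalization again, and Stra6 between Matrigel and collagen I to -0.0081 with arrays re-centred. Uncalled differences that changed sign when an array was left out ranged, against plastic on Matrigel, from -0.10 to 0.21 (Stra6), -0.016 to 0.30 (Aldh1a1) and -0.12 to 0.35 (Crabp2). On collagen I they ranged from -0.046 to 0.11 (Stra6), -0.14 to 0.0066 (Aldh1a1) and -0.026 to 0.014 (Rara). Between Matrigel and collagen I they ranged from -0.13 to 0.17 (Stra6), -0.52 to 0.28 (Aldh1a2), -0.21 to 1.09 (Cyp26b1) and -0.42 to 0.051 (Crabp2). The cause was not tested. Leaving out a Matrigel array leaves 1, assumed to vary like the other groups. Testing only genes with fewer than 5 arrays at an identical value, chosen after seeing the data, kept all member calls and dropped Rara. Another entry per member was not run, as each had 1 entry.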

Other observations

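Rarres2, which encodes the secreted protein chemerin and was first described as induced by a synthetic retinoid, was singled out after its values were seen. It was at 5.26 and 8.19 on Matrigel and 6.37, 5.80 and 5.77 on collagen I, against 8.85, 8.15, 9.47 and 7.82 on plastic. The 2 Matrigel arrays of this gene lay further apart than any 2 arrays of another surface, and the differences from plastic, -1.85 ± 0.74 on Matrigel and -2.59 ± 0.65 on collagen I (SE), did not pass (limma adjusted p = 0.167 and 0.0538).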
